A study of Mus musculus with 12 samples.

Results

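The comparison described here is that of mice lacking nuclear myosin 1 (KO) with wild-type (WT) mice in the libraries labelled spleen. These are 6 of the 12 RNA sequencing libraries of a study of blood and spleen whose title puts platelet activation beside the immune response. All were taken by their labels: spleen KO 01, 03 and 04 against spleen WT 01, 02 and 04. Both groups were untreated C57/Bl6 mice at 8 months of age, so strain, age and housing were shared and the genotype was the labelled difference. A small piece from the tip of the organ, of about 5 mm3, was homogenised per library, and 500 ng of its RNA was sequenced. The labels do not say whether each library came from a separate mouse, so the p-values measure the spread between these libraries. A bulk library also cannot tell fewer cells of a type apart from less RNA per cell.

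Nuclear myosin 1 is a form of the class I myosin made from the Myo1c gene that carries extra residues at its amino end. It works as an actin-based motor in the nucleus, where it binds RNA polymerase I and II and the WSTF and SNF2h chromatin remodellers (Baz1b and Smarca5). The spleen filters blood in its red pulp, where macrophages remove old red cells and where, in mice, new red cells and neutrophils can also be made. Its white pulp holds B and T cells arranged by stromal chemokines, and plasma cells lie between these compartments.

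The libraries were of 2 kinds that cut across genotype. The 4 adult globin genes Hba-a1, Hba-a2, Hbb-bs and Hbb-bt took 54.8% to 56.1% of counts in WT 02, WT 04 and KO 03, called globin-rich here, and 0.846% to 2.95% in WT 01, KO 01 and KO 04, called globin-poor. The 95% Wilson interval of each share was within ± 0.032 percentage points, which covers counting error only. Genotype was therefore tested with a term for this kind and with the globin genes left out, which left 4.09 to 5.47 M counts per globin-rich and 24.8 to 27.4 M per globin-poor library (M, 10 to the power of 6) out of totals of 9.32 to 28.2 M. All levels below are counts per M of the remaining counts, scaled by the trimmed mean of M-values (scaled CPM). A library with 0 counts of a gene could hold up to 3, which is 0.0721 to 0.0734 scaled CPM in the globin-poor and 0.648 to 1.33 in the globin-rich libraries. These floors too cover counting error only.

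The globin-rich libraries went against their spleen label. Vcam1, an adhesion molecule of red pulp macrophages, stood at 1.69, 2.22 and 0 scaled CPM in WT 02, WT 04 and KO 03 and at 165 to 248 in the globin-poor libraries. Cxcl13 and Ccl19, the chemokines that place B and T cells in the white pulp, had 0 counts in all 3 globin-rich libraries, against 60.6 to 130.3 and 50.2 to 87.4. The platelet integrin gene Itga2b stood at 2380 to 3944 in the globin-rich and at 50.4 to 54.6 in the globin-poor libraries. WT 02 and WT 04 also held a wide low-level background: they detected 219 and 201 of 1198 olfactory receptor genes, which spleen is not known to use, against 19 to 40 in the other 4. Within-kind values are therefore given beside each result. In them KO 03 is compared with WT 02 and WT 04 in the globin-rich kind, and KO 01 and KO 04 with WT 01 in the globin-poor kind. Each kind so has 1 genotype with a lone library.

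No gene passed the genotype test. Of 16877 genes tested by edgeR's quasi-likelihood test with the kind term, 0 (0%) had a Benjamini-Hochberg adjusted p under 0.05, and 567 (3.36%) had an unadjusted p under 0.05. The smallest adjusted p, 0.0864, belonged to a pseudogene. Without WT 01 the count was 466, and with the globin-rich libraries alone it was 1398 of 12724 (11%, with KO 03 a lone library), against 0 of 17697 (0%) with the globin-poor libraries alone. By position, 1586 genes (9.4%) had their KO libraries above the WT libraries within both kinds and 2168 (12.8%) below. The order of these shares turned with expression: among the 10614 genes of at least 5 scaled CPM, 1277 (12%) stood above and 865 (8.15%) below. The same positions within 1 kind were far more common: KO 03 stood above both WT libraries for 33.3% of genes and below for 38.7%, and KO 01 and KO 04 stood above WT 01 for 33.1% and below for 36.8%. The log2 fold change was above 0 for 47.1% of genes in the joint fit (58.5% of those of at least 5 scaled CPM), for 48.5% within the globin-rich kind and for 52.4% within the globin-poor kind. The list counts above 0 given below are to be read beside these shares. In the simulated data 11.1% of genes altered 2-fold, 67.8% altered 4-fold and 74.5% altered 8-fold were called by this fit over 16278 genes.

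A test of whether the genotype difference varied with the kind of library rested on 2 lone libraries, WT 01 and KO 03. In it the interaction of genotype and kind was called by edgeR for 559 of 18266 genes (3.06%). An unadjusted p under 0.05 was given to 18% of them, and among genes of at least 5 scaled CPM 4.73% were called. The KO effect was lower in the globin-rich libraries for 519 of the called genes (2.84%) and higher for 40 (0.219%). For 436 of the 519, KO 03 stood below both WT libraries while KO 01 and KO 04 both stood above WT 01, and for 36 of the 40 the positions were the opposite. KO 03 had 0 counts for 101 of the 559. This count rested on the WT 02 and WT 04 libraries and on the fit: it was 1 without WT 02, 0 without WT 04, 1015 without KO 04, 0 with limma-voom and 0 in a fit of all 12 libraries. WT 02 and WT 04 also held more of the background that KO 03 lacked, at 218 and 182 scaled CPM against 9.50 summed over the olfactory receptor genes, and its part in these calls was not tested. The interactions given for single genes below are from this 1 fit and carry these limits. Across the 10249 genes of at least 5 scaled CPM tested in both kinds, the within-kind log2 fold changes, which share no library, correlated across genes at Pearson r = -0.265 and Spearman rho = -0.240, and 43.1% had the same sign. Genes are not independent replicates, and the points share the 3 libraries of each kind.

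**Figure D1:**
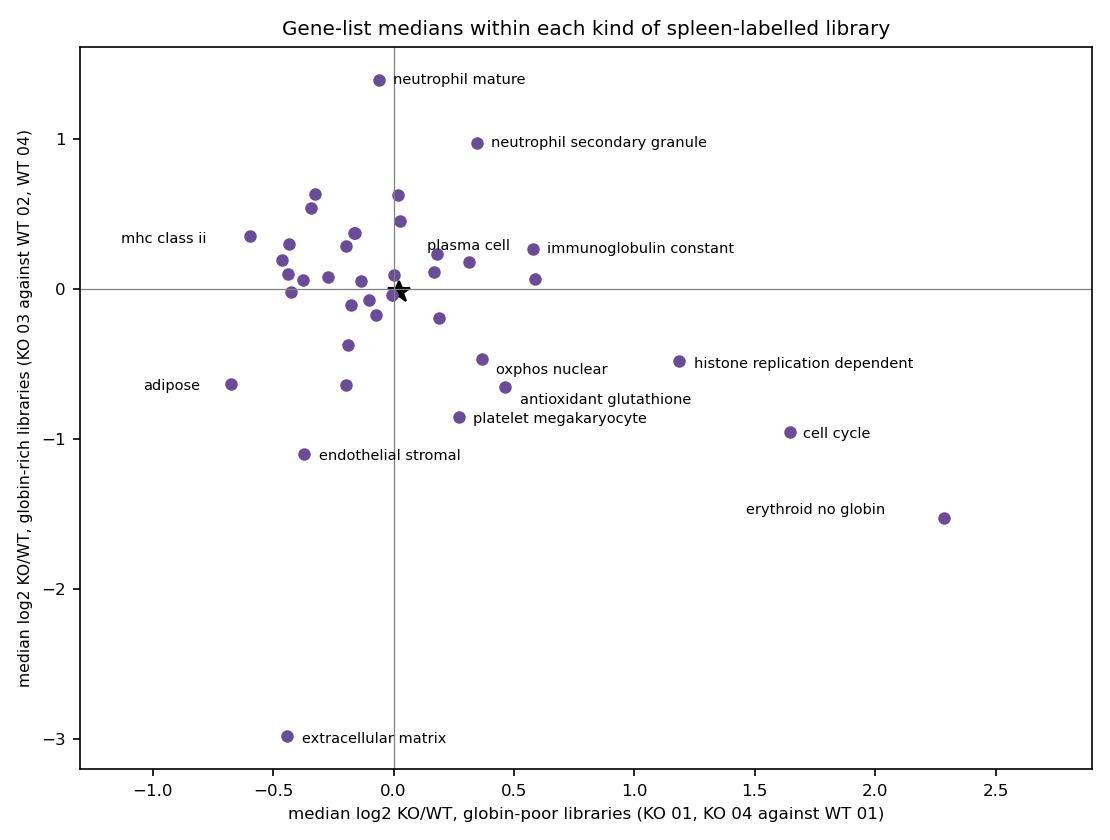
Median log2 fold change of KO over WT for 39 gene lists (points) and all tested genes (star) within the globin-poor libraries (x axis) and within the globin-rich libraries (y axis). The erythroid list lies at 2.29 and -1.53 and the cell cycle list at 1.65 and -0.95. The matrix list lies below 0 on both axes, with 13 of its 36 genes tested in the globin-rich libraries. The lists of pancreatic and sex-linked genes, of 5 tested genes each, are not drawn.

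Myo1c, the gene that encodes nuclear myosin 1 (ENSMUSG00000017774, GRCm38 chr11:75650504-75673910, plus strand), was counted in every library. It stood at 109.9 scaled CPM in WT 01 and at 88.2 and 102 in KO 01 and KO 04, and at 114 and 126 in WT 02 and WT 04 and 152 in KO 03. KO libraries were thus below WT in the globin-poor kind and above it in the globin-rich kind, and the log2 fold change was 0.06 ± 0.21 (SE, edgeR adjusted p = 0.998). The deposited count sums all forms made from the gene, so it does not check the knockout. Of the 27 other tested genes within 0.5 Mb of Myo1c, 12 had a log2 fold change above 0. They ranged from -1.84 to 0.75 with a median of -0.02, and 0 had an unadjusted p under 0.05.

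Among genes with KO above WT in both kinds of library, several were of neutrophils. The naming rule required that position, so the lack of overlap of a rule-named gene is no separate result. Neutrophils build their granules in order as they mature in the marrow or spleen: primary granules with Mpo and Elane, then secondary granules with Ltf, Ngp, Camp and Lcn2, and last the products of mature cells such as S100a8, S100a9 and Mmp9. Chil3, which encodes the chitinase-like lectin Ym1 of maturing neutrophils and some macrophages, had the smallest p of the rule-named genes. It stood at 6.76 scaled CPM in WT 01 and at 20.6 and 30.8 in KO 01 and KO 04. In the globin-rich kind it stood at 126 and 130.3 in WT 02 and WT 04 and at 429.7 in KO 03. The groups did not overlap within either kind, as the naming rule required. The log2 fold change was 1.84 ± 0.24 (SE; unadjusted p = 2.03e-05, edgeR adjusted p = 0.171). Chil3 passed with DESeq2 (1.82, adjusted p = 3.47e-09), with library sizes as the only scaling (2.16, edgeR adjusted p = 0.0383) and without the filter on low counts (1.87, edgeR adjusted p = 0.000378), and not in the fit as planned.

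Lcn2, the iron-binding protein lipocalin 2 of secondary granules, stood at 12.5 scaled CPM in WT 01 and at 20.9 and 31.8 in KO 01 and KO 04. In the globin-rich libraries it stood at 36.0 and 17.3 in WT 02 and WT 04 and at 108 in KO 03 (log2 1.53 ± 0.34). No KO library overlapped the WT libraries of its kind, as the naming rule required. S100a8, a subunit of calprotectin, stood at 56.7 in WT 01 against 79.1 and 90.7, and at 349 and 279 in WT 02 and WT 04 against 1270.3 in KO 03 (log2 1.3 ± 0.32). The groups again stood apart, as the rule required. They did so by more in the globin-rich libraries, and the interaction passed (1.45 ± 0.38, edgeR adjusted p = 0.0477). Wfdc21 (1.82 ± 0.49), Stfa2l1 (1.33 ± 0.34) and Cd177 (0.95 ± 0.26), each made by neutrophils, were placed likewise. Each gene of this paragraph had an edgeR adjusted p of 0.993 for genotype.

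The 250 bases before a RefSeq transcription start of leading neutrophil and proliferation genes are printed here. These genes stood apart in both kinds of library, as the naming rule required. The sequences are RefSeq's on GRCm38.p6, and 11 of the 14 rule-named genes higher in KO and 8 of the 14 lower ones had an entry. For Lcn2 and Cdc6 the window lies inside the gene as annotated by GENCODE, at chr2:32384633-32388252 and chr11:98907801-98923940. The RefSeq starts used for them thus lie downstream of the annotated gene start. Capitals mark matches, on either strand, to the letters TTGCNNAA (a core of C/EBP factor sites, other strand TTNNGCAA), CCAAT (other strand ATTGG), the cell cycle homology region, CHR, as TTTGAA (other strand TTCAAA), and GCGGGAA (an E2F core, other strand TTCCCGC).
Chil3, chr3:106167565-106167814, minus strand: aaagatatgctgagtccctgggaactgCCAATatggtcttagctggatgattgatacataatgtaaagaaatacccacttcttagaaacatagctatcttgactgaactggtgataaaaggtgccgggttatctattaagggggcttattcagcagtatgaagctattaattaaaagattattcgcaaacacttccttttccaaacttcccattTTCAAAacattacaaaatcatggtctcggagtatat
Lcn2, chr2:32387740-32387989, minus strand: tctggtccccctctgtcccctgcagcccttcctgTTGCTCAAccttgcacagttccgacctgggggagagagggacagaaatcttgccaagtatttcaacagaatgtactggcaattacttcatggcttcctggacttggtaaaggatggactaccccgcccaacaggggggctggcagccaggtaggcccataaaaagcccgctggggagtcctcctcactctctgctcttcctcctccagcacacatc
Cdc6, chr11:98907901-98908150, plus strand: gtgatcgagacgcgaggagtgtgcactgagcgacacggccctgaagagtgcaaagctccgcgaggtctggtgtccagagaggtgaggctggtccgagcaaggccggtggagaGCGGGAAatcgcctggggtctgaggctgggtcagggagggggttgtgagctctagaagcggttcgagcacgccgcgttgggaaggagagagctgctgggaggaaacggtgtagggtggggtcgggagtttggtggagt
Hmgb2, chr8:57511593-57511842, plus strand: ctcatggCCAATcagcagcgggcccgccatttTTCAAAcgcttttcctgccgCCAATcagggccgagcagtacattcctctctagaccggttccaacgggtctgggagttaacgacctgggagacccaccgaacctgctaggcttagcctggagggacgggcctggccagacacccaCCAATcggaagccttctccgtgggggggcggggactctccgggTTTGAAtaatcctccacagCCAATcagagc
These letters are in 9.56%, 33.8%, 16.0% and 3.82% of the 32851 RefSeq promoter windows of this length, in the order given above. Of the 11 higher genes with an entry, 2 (Dck and Lcn2) held the C/EBP letters, 7 CCAAT, 3 the CHR letters and 1 (Cdc6) the E2F letters. Of the 8 lower genes, 1, 4, 1 and 1 held them. A gene was counted where any of its windows matched, whereas the shares are per window, so the 2 are not like measures. A match describes the letters in this window and is no evidence of a bound site.

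Genes of mature neutrophils stood higher in KO in the globin-rich kind, and not as a list in the globin-poor kind. Of 36 tested genes of mature neutrophils, 33 had a log2 fold change above 0, against 47.1% of all tested genes and 58.5% of those of at least 5 scaled CPM. The list's median was 0.58 beside -0.03 for all tested genes, 10 had an unadjusted p under 0.05 (3.36% of all genes), and 9 stood above WT in both kinds (9.4% of all genes, and 12% of those of at least 5 scaled CPM). That median came from the globin-rich libraries, where it was 1.39 with 32 of 33 above 0, and it was -0.06 with 17 of 35 above 0 in the globin-poor ones. Retnlg, a resistin-like product of mature neutrophils, showed the opposite positions: 59.3 scaled CPM in WT 01 against 28 and 30.4 in KO 01 and KO 04, and 102 in both WT 02 and WT 04 against 389 in KO 03. Its interaction was 2.96 ± 0.36 (edgeR adjusted p = 0.00206). Mmp9, the gelatinase of tertiary granules, stood at 35.5 against 17.1 and 20.1, and at 219 and 186 against 482 (interaction 2.20 ± 0.37, edgeR adjusted p = 0.00744). The interaction also passed, in the same direction, for S100a9 (1.96 ± 0.40), Il1b (2.02 ± 0.38), Mmp8 (2.31 ± 0.50) and the chemokine receptor gene Cxcr2 (1.77 ± 0.40). In all, 9 of the mature list were called higher and 1 lower in the globin-rich kind, beside 0.219% and 2.84% of all genes.

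Some primary and secondary granule genes stood the other way, though their lists as a whole did not. Ltf, the iron-binding lactoferrin, stood at 10.4 scaled CPM in WT 01 against 38.2 and 44.9 in KO 01 and KO 04, and at 10.2 and 8.42 in WT 02 and WT 04 against 4.10 in KO 03 (interaction -3.16 ± 0.64, edgeR adjusted p = 0.0132). Ngp, a cathelin-related granule protein, stood at 19.5 against 62.6 and 69.6, and at 12.3 and 12.9 against 9.93 (interaction -2.09 ± 0.52, edgeR adjusted p = 0.0364). Mpo, myeloperoxidase, stood at 6.66 against 18.8 and 20.6, and at 5.93 and 4.43 against 0 counts in KO 03, so KO libraries were higher in the globin-poor kind and lower in the globin-rich one. Of the 21 secondary granule genes tested, 16 were above 0 (median 0.56, and 0.97 and 0.35 in the globin-rich and globin-poor kinds). Of these 21, 7 stood above WT in both kinds, beside 9.4% of all genes and 12% of those of at least 5 scaled CPM. KO 03 stood above both WT libraries for 14 of the 21, as it did for 33 of the 36 mature genes, and below for 6. Chil3, Lcn2, Wfdc21 and Cd177 are on this list. Of the 12 primary granule genes, 8 were above 0 and 0 stood above WT in both kinds (median 0.18), and KO 03 stood above both WT libraries for 4 and below for 3. Over all genes KO 03 stood above both WT libraries for 33.3% and below for 38.7%. The counts of the primary list were near or under these shares.

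**Figure D2:**
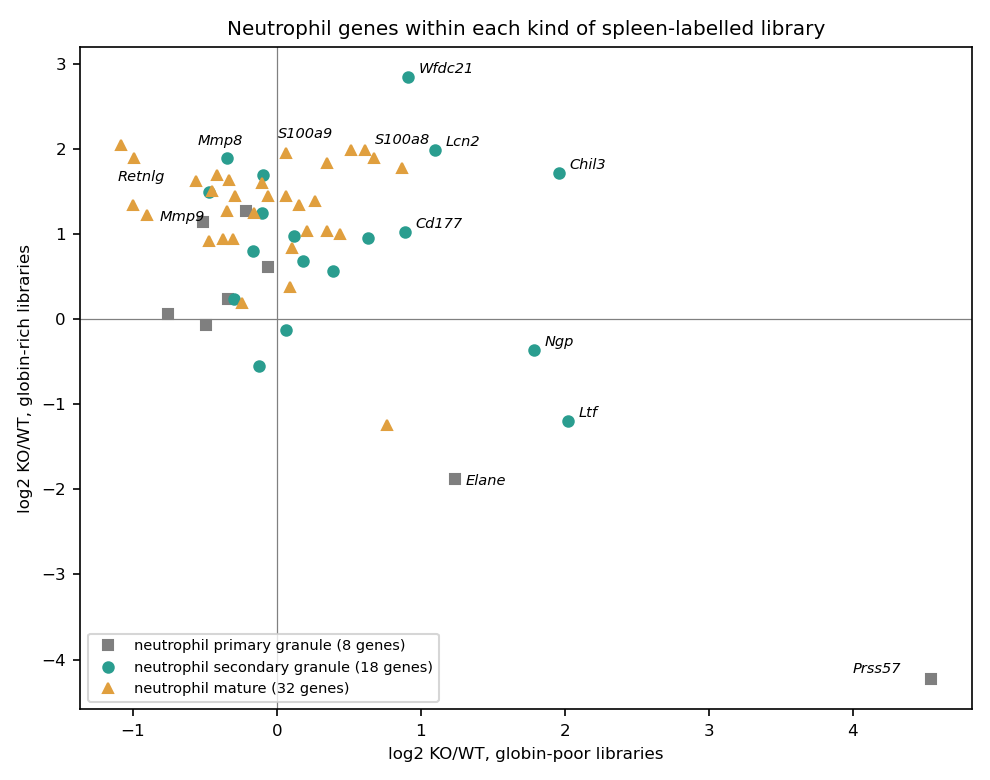
Log2 fold change of KO over WT fitted within the globin-poor libraries (x axis) and within the globin-rich libraries (y axis) for genes of primary granules, secondary granules and mature neutrophils that were tested in both. Chil3, Lcn2, Wfdc21, S100a8 and Cd177 lie to the right of and above 0, Retnlg and Mmp9 above and to the left, and Ltf, Ngp and Elane below and to the right; Mpo, with 0 counts in KO 03, is not drawn.

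Genes of dividing cells stood higher in KO in the globin-poor libraries, and only part of them in both kinds. Of 58 tested cell cycle genes, 54 had a log2 fold change above 0, 14 had an unadjusted p under 0.05 and 16 stood above WT in both kinds, beside 9.4% of all genes and 12% of those of at least 5 scaled CPM. The list's median was 0.65, and it was 1.65 in the globin-poor kind (56 of 58 above 0) and -0.95 in the globin-rich kind (15 of 48 above 0). Hmgb2, a chromatin protein abundant in dividing cells, stood at 152 scaled CPM in WT 01 against 538 and 289.6 in KO 01 and KO 04, and at 78.4 and 79.4 in WT 02 and WT 04 against 160.0 in KO 03 (1.24 ± 0.29). Cdc6, the licensing factor of replication origins, stood at 10.7 against 86.9 and 35.2, and at 0.847 and 0.443 against 2.38 (2.41 ± 0.50). Both genes had KO above WT in each kind, as the naming rule required, with KO 01 the highest library. The globin-rich levels of Cdc6 lie near the floor of a 0 count.

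Dck, deoxycytidine kinase of the nucleotide salvage pathway, stood at 27.2 scaled CPM in WT 01 against 78.9 and 55.0, and at 53.8 and 56.3 in WT 02 and WT 04 against 110.3 in KO 03 (1.16 ± 0.23). The nuclear lamin gene Lmnb1 stood at 59.1 against 138 and 91.6, and at 35.6 and 31.0 against 71.0 (1.02 ± 0.23). No KO library of either gene overlapped the WT libraries of its kind, as the naming rule required. Cenpf, a kinetochore protein (1.90 ± 0.43), Tk1, thymidine kinase (1.26 ± 0.38), and Ccdc34 (1.34 ± 0.35) were placed likewise, and the edgeR adjusted p was 0.993 for each gene of this and the preceding paragraph. Cenpf had only 2, 1 and 9 counts in WT 02, WT 04 and KO 03. Its 2 WT levels there, 0.847 and 0.443, lie under the floors of a 0 count (1.27 and 1.33). Other proliferation genes differed between the kinds. Mki67, the marker of cycling cells, stood at 88.1 against 476 and 226, and at 177 and 152 against 43.8 (interaction -3.89 ± 0.57, edgeR adjusted p = 0.0065). Tyms, thymidylate synthase, stood at 13.8 against 68.9 and 31.5, and at 26.3 and 24.4 against 1.08 (-6.39 ± 0.82, edgeR adjusted p = 0.0022). In all, 22 cell cycle genes were called with a lower KO effect in the globin-rich kind (2.84% of all genes) and 0 with a higher one (0.219%).

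Genes of red cell precursors stood higher in KO in the globin-poor libraries, as the proliferation genes did, and lower in the globin-rich ones. With globin left out, all 48 tested erythroid genes were above 0 within the globin-poor kind (median 2.29), with KO 01 and KO 04 both above WT 01 for 48 of 48 (33.1% of all genes). Within the globin-rich kind 0 of 48 were above 0 (median -1.53), and KO 03 stood below both WT libraries for 47 (38.7% of all genes). The median of the joint fit, 0.30 with 39 of 48 above 0, averages these and describes neither. The summed level of the list was 2134 scaled CPM in WT 01 against 11830 and 5139 in KO 01 and KO 04, and 448500 and 393200 in WT 02 and WT 04 against 181200 in KO 03. The interaction was called for 32 of the 48, each with the lower KO effect in the globin-rich kind (2.84% of all genes).

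Alas2, the first enzyme of heme synthesis in red cells, stood at 76.4 scaled CPM in WT 01 against 382 and 186 in KO 01 and KO 04, and at 112310 and 98106 in WT 02 and WT 04 against 47897 in KO 03 (interaction -3.02 ± 0.64, edgeR adjusted p = 0.0165). The KO libraries lay on opposite sides of WT in the 2 kinds for Alas2. Klf1, a transcription factor of early erythroblasts, stood at 22.1 against 239 and 85.0, and at 8.47 and 3.55 against 3.02, and its interaction did not pass (-3.86 ± 1.25, edgeR adjusted p = 0.194). The order KO 01, KO 04, WT 01 in the globin-poor kind was the same for Alas2, Klf1, Mki67, Cdc6 and Hmgb2. These genes were picked, and the share of all genes with this order was not counted. The part of red cell precursors in the proliferation result was not tested.

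**Figure D3:**
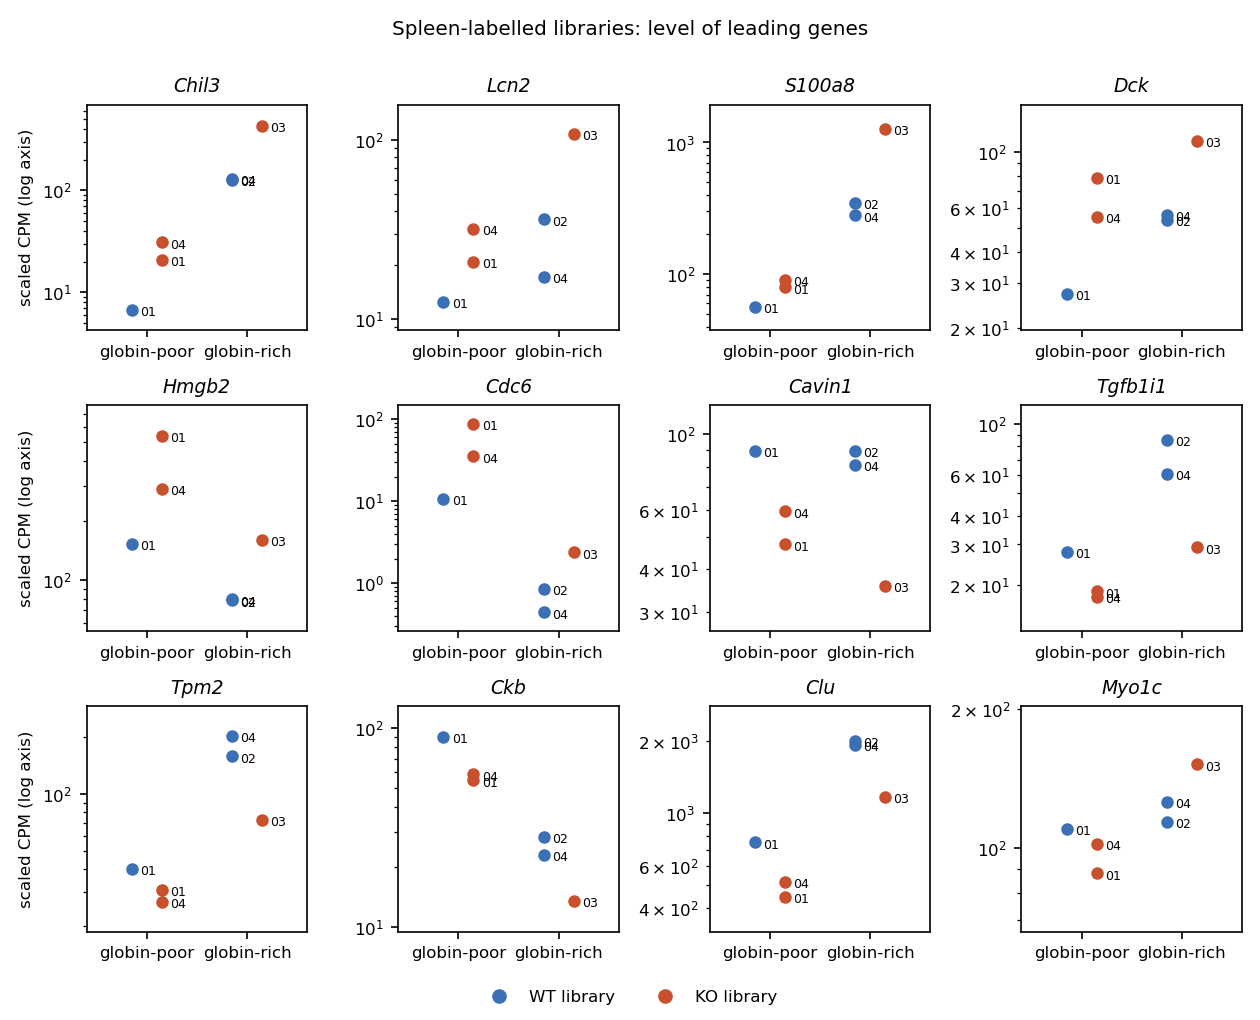
Level (scaled CPM, log axis) of 12 genes in each of the 6 libraries, marked by replicate number, with globin-poor libraries on the left and globin-rich ones on the right of each panel. The KO libraries lie above WT in both kinds for Chil3, Lcn2, S100a8, Dck, Hmgb2 and Cdc6, and below WT in both for Cavin1, Tgfb1i1, Tpm2, Ckb and Clu, while Myo1c lies on opposite sides.

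Antibody genes differed in their class composition. Each heavy chain class has its own constant gene: Ighm and Ighd in naive B cells, and Ighg and Igha genes after class switching, mostly in plasma cells. In WT 01 the IgG genes made up 11.9% of heavy chain constant counts (95% Wilson interval 11.8% to 12.1%), against 35.0% (34.8% to 35.1%) in KO 01 and 41.8% (41.6% to 41.9%) in KO 04. Igha made up 25.2% (25.1% to 25.4%) in WT 01 against 9.47% (9.38% to 9.57%) and 12.4% (12.3% to 12.5%). The globin-rich libraries held few switched transcripts: IgG genes made up 0.368% in WT 02 (0.219% to 0.617%), 0.340% in WT 04 (0.212% to 0.544%) and 0.161% in KO 03 (0.1% to 0.257%). These intervals cover counting error only and not the spread between libraries. There the KO library was the lowest, so the higher IgG share in KO was limited to the globin-poor libraries, where it rests on 1 WT library and could not be tested.

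Ighg1 stood at 51.8 scaled CPM in WT 01 against 226 and 478 in KO 01 and KO 04, and at 0.847 and 0.887 in WT 02 and WT 04 against 1.73 in KO 03 (2.48 ± 0.50, unadjusted p = 0.000714, edgeR adjusted p = 0.993). Igha stood at 1608 against 809.97 and 1301, and at 34.7 and 25.7 against 10.8 (-1.01 ± 0.35, unadjusted p = 0.0173, edgeR adjusted p = 0.993). These were on the same side in both kinds, IgG1 higher and IgA lower in KO. For Ighg1 the naming rule required this. For Ighg1 the globin-rich position rests on 2, 2 and 8 counts in WT 02, WT 04 and KO 03. Both WT levels lie under the floors of a 0 count there (1.27 and 1.33 scaled CPM). Ighg2b stood at 330.5 against 1823 and 997, and Ighg2c at 257 against 779.9 and 869, whereas Ighg3 was high in 1 KO library alone, at 122 in WT 01, 161 in KO 01 and 2033 in KO 04. The IgG genes are related in sequence, and how reads shared between them were counted was not tested. Of the plasma cell genes, 19 of 24 were above 0 and 9 stood above WT in both kinds (9.4% of all genes, and 12% of those of at least 5 scaled CPM), with a median of 0.27. Among them Creld2, a chaperone of the endoplasmic reticulum, stood at 53.7 against 64.2 and 101, and at 11 and 9.75 against 22.0 (0.82 ± 0.26, edgeR adjusted p = 0.993). Jchain, which joins IgA and IgM subunits, stood at 578 against 783 and 908 but at 3.81 and 5.32 against 3.02 in the globin-rich kind.

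**Figure D4:**
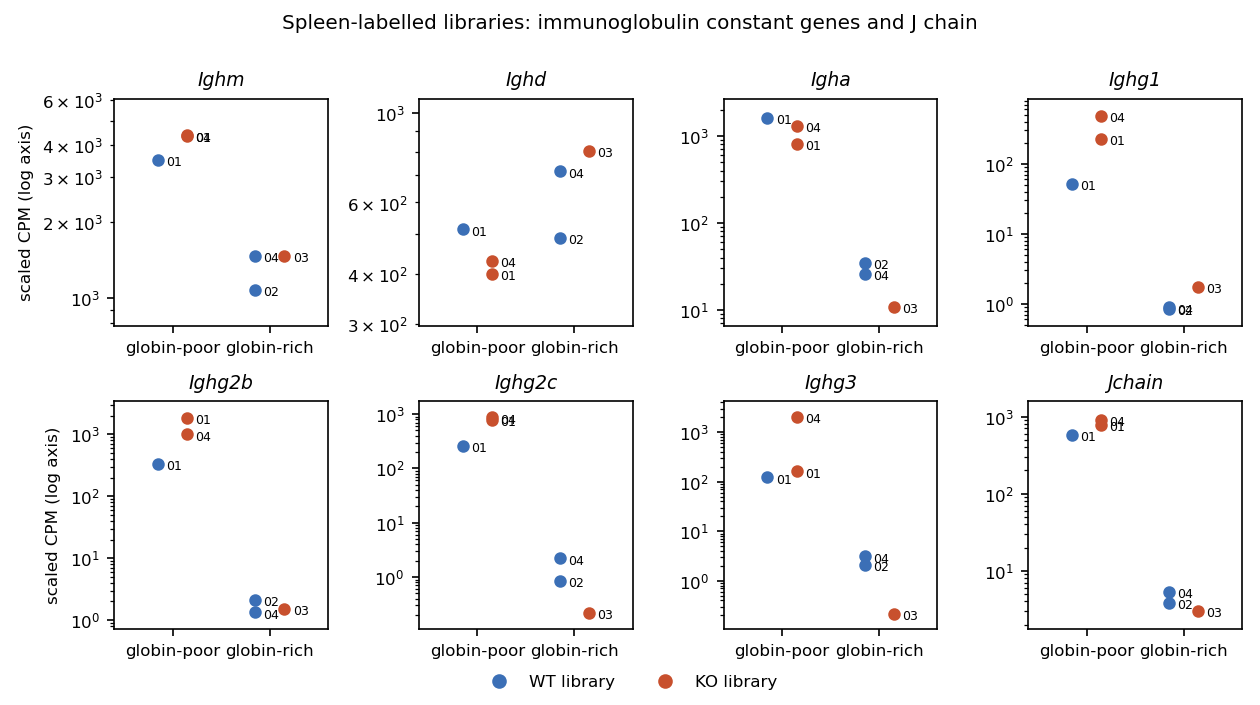
Level (scaled CPM, log axis) of 7 heavy chain constant genes and the J chain gene in each library, marked by replicate number. In the globin-poor libraries KO 01 and KO 04 lie above WT 01 for the 4 IgG genes and below it for Igha and Ighd; in the globin-rich libraries the IgG genes lie at or under 3.10 scaled CPM.

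Genes lower in KO in both kinds included several that contractile, stromal and endothelial cells express. Cavin1, which coats caveolae in endothelial and smooth muscle cells, stood at 89.4 scaled CPM in WT 01 against 47.4 and 59.3 in KO 01 and KO 04, and at 89.4 and 81.1 in WT 02 and WT 04 against 35.8 in KO 03 (-0.99 ± 0.23). Tgfb1i1, a focal adhesion protein of smooth muscle, stood at 27.8 against 18.8 and 17.8, and at 85.6 and 60.7 against 29.1 (-0.95 ± 0.26). Both were lower in each KO library than in any WT library of its kind, as the naming rule required. Ckb, brain-type creatine kinase, stood at 90.0 against 54.6 and 58.6, and at 28.4 and 23.1 against 13.6 (-0.78 ± 0.22). The tropomyosin gene Tpm2 stood at 40.0 against 30.9 and 26.8, and at 158 and 203 against 72.5 (-0.89 ± 0.26). Stab1, a scavenger receptor of sinus endothelium and macrophages (-1.36 ± 0.44), Col15a1, a basement membrane collagen (-2.14 ± 0.68), Loxl1, which crosslinks elastin (-1.57 ± 0.49), and the laminin receptor gene Itgb4 (-1.05 ± 0.34) were placed likewise. The edgeR adjusted p was 0.993 for each. In the globin-rich kind these positions set KO 03 against the WT 02 and WT 04 libraries with the wide background (219 and 201 olfactory receptor genes detected against 19), and some of the levels there were low, as for Col15a1 at 9.74 and 5.32 against 0.648. The part of that background was not tested. Col1a1, a fibroblast collagen gene, stood at 1.27, 0 and 0 in WT 02, WT 04 and KO 03, against 55.4 to 96.9 in the globin-poor libraries. Tpm2, Tgfb1i1 and the platelet gene Itga2b (2380 to 3944 against 50.4 to 54.6) stood higher in the globin-rich than in the globin-poor libraries. Which cells gave these counts in each kind was not tested.

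Clu, the secreted chaperone clusterin that platelets and stromal cells make, stood at 755 scaled CPM in WT 01 against 448 and 515 in KO 01 and KO 04, and at 2004 and 1928 in WT 02 and WT 04 against 1171 in KO 03. KO libraries stood below WT in both kinds (-0.70 ± 0.28, edgeR adjusted p = 0.993). DESeq2 called Clu (-0.72, adjusted p = 0.0037).

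By list, 5 of 36 extracellular matrix genes were above 0 (median -0.83), and 16 of the 36 stood below WT in both kinds, beside 12.8% of all genes and 8.15% of those of at least 5 scaled CPM. Of 35 endothelial and stromal genes 2 were above 0 (median -0.76), and 13 stood below WT in both kinds. Most counts of these genes came from the globin-poor libraries, where the medians were -0.44 and -0.37. Only 13 of the 36 and 22 of the 35 passed the low-count filter within the globin-rich kind, so many positions there rest on few counts. In WT 02, WT 04 and KO 03, Bgn had 6, 7 and 2 counts and Fbln1 10, 3 and 0. WT 02 and WT 04 also held the wide background given above. Bgn, the matrix proteoglycan biglycan, stood at 279 scaled CPM in WT 01 against 177 and 194 in KO 01 and KO 04, and at 2.54 and 3.10 against 0.432 in the globin-rich kind (-0.93 ± 0.34, edgeR adjusted p = 0.993). Without WT 01 the matrix and endothelial medians were -4.30 and -2.37, and with genotype as the only term they were 0.29 and 0.22.

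White pulp chemokines stood lower in KO in the globin-poor libraries, which held nearly all of their counts. Cxcl13 stood at 130.3 scaled CPM in WT 01 against 60.6 and 75.7 in KO 01 and KO 04 (-0.93 ± 0.31), and Ccl19 at 87.4 against 50.2 and 55.9 (-0.72 ± 0.32). Ccl21a, which guides T cells and dendritic cells, stood at 245 against 159 and 198, and the vascular addressin gene Madcam1 at 19.8 against 11.5 and 11.8. In WT 02, WT 04 and KO 03 Ccl21a had 3, 1 and 0 counts and Madcam1 2, 1 and 0. KO libraries were below WT 01 for each of the 4 genes, and the edgeR adjusted p was 0.993 for each. Over the white pulp stroma list 17 of 21 tested genes had KO 01 and KO 04 both below WT 01, beside 36.8% of all genes, with a median of -0.45 in that kind. Other immune lists shared this position in the globin-poor kind: 21 of 26 B cell genes, 25 of 32 T cell genes, 20 of 24 dendritic cell genes and 11 of 12 genes of MHC class II antigen presentation.

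The antigen presentation genes stood the other way in the globin-rich kind. Cd74, the invariant chain of MHC class II, stood at 4893 scaled CPM in WT 01 against 2603 and 3236 in KO 01 and KO 04, and at 2295 and 3023 in WT 02 and WT 04 against 3559.5 in KO 03. Its interaction did not pass (1.18 ± 0.45, edgeR adjusted p = 0.172). The MHC class II list had medians of -0.60 and 0.35 in the globin-poor and globin-rich kinds, and the B cell list of -0.43 and 0.30. The median of all tested genes in the globin-poor kind was 0.02. There the erythroid list summed to 2134 scaled CPM in WT 01 against 11830 and 5139 in KO 01 and KO 04. All genes of at least 5 scaled CPM summed to 598900 against 648000 and 590800. The part of the erythroid shift in the positions of the B cell and MHC class II lists was not tested.

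No gene of platelets, which the study's title puts first, passed edgeR's genotype test in the joint fit, whereas DESeq2 called Clu, as given above. Of 34 tested platelet and megakaryocyte genes, 6 were above 0 with a median of -0.20, and 3 stood below WT in both kinds (12.8% of all genes): Clu, the exchanger gene Slc24a3 (-0.70 ± 0.25) and Nrgn (-0.25 ± 0.32). With library sizes as the only scaling the median was 0.11, but all genes then had a median of 0.25. In the globin-rich libraries KO 03 stood below both WT libraries for 31 of 34 (38.7% of all genes; median -0.85), whereas in the globin-poor ones KO 01 and KO 04 both stood above WT 01 for 22 (33.1% of all genes; median 0.27). Thbs1, the granule adhesion protein thrombospondin 1, stood at 36.4 scaled CPM in WT 01 against 37.1 and 32.3, and at 1556 and 1805 in WT 02 and WT 04 against 489 in KO 03 (interaction -1.70 ± 0.41, edgeR adjusted p = 0.032). Tubb1, the tubulin of the platelet marginal band, stood at 3.50 against 6.06 and 6.25, and at 956 and 1099.9 against 472 (-1.92 ± 0.41, edgeR adjusted p = 0.0169). The interaction also passed for Vwf (-1.60 ± 0.41), Gp1ba (-1.73 ± 0.41), Gp1bb (-1.52 ± 0.40) and F2rl2 (-1.67 ± 0.42). Pf4, by contrast, stood at 28.9 against 36.4 and 36.2, and at 1333 and 1323 against 1028 (genotype log2 -0.02 ± 0.28, edgeR adjusted p = 0.998).

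The known partners of nuclear myosin 1 had no member with an unadjusted p under 0.05. Of 28 tested chromatin and polymerase partners, 24 were above 0 with a median of 0.14, beside 47.1% of all genes and 58.5% of those of at least 5 scaled CPM. Of the 28, 5 stood above WT in both kinds, beside 9.4% of all genes and 12% of those of at least 5 scaled CPM. The member of smallest p, the chromatin protein gene Dek, stood at 127 scaled CPM in WT 01 against 377 and 198 in KO 01 and KO 04, and at 75.8 and 120 in WT 02 and WT 04 against 109 in KO 03 (0.68 ± 0.37, edgeR adjusted p = 0.993). It was higher in KO in the globin-poor kind and overlapped WT in the globin-rich one. Baz1b stood at 142 scaled CPM in WT 01 against 188 and 160 in KO 01 and KO 04, and at 105 and 98.4 in WT 02 and WT 04 against 107 in KO 03 (0.19 ± 0.21). Smarca5 stood at 68.8 against 109.8 and 80.8, and at 67.8 and 58.1 against 58.9 (0.20 ± 0.24). The KO libraries stood above WT in both kinds for Baz1b and overlapped it in the globin-rich kind for Smarca5. Of 26 genes of the RNA polymerase I machinery, 23 were above 0 (median 0.21), from Nolc1 at 0.47 ± 0.25 down to Taf1a at -0.32 ± 0.33. In both kinds 3 of the 26 (11.5%) stood above WT, near the 9.4% of all genes and 12% of those of at least 5 scaled CPM. No gene of that list had an unadjusted p under 0.05 either.

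The list of class I myosins and actin genes also holds the light chain gene Myl9, so its counts are not of class I myosins alone. Of its 32 tested genes, 7 were above 0 with a median of -0.12. Below WT in both kinds stood 12, beside 12.8% of all genes and 8.15% of those of at least 5 scaled CPM. With library sizes as the only scaling that median was 0.19, against 0.25 for all genes. Myl9, the regulatory light chain of smooth muscle and platelet myosin, stood at 92.1 scaled CPM in WT 01 against 72.4 and 60.5, and at 2648 and 2501 against 1438 (-0.66 ± 0.29, edgeR adjusted p = 0.993). Myo1e, another class I myosin, stood at 88.5 against 50.4 and 74.5, and at 54.6 and 58.5 against 53.8 (-0.30 ± 0.23). Myo1g (0.06 ± 0.24) and Myo1f (0.19 ± 0.24), the class I myosins of leukocytes, were on opposite sides of WT in the 2 kinds, as Myo1c was. For Myo1d the interaction passed, with 8.22 against 21.9 and 11.1, and 70.3 and 55.0 against 12.5 (-3.32 ± 0.63, edgeR adjusted p = 0.011).

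Many respiratory chain and antioxidant genes were placed as the erythroid genes were. Of 74 nuclear genes of oxidative phosphorylation, 71 were above 0 in the globin-poor kind (median 0.37) and 22 in the globin-rich kind (median -0.47, and 0.22 with library sizes as the only scaling, where all genes had 0.66), and 13 stood above WT in both (9.4% of all genes). Cox6a1, a cytochrome oxidase subunit, stood at 197 scaled CPM in WT 01 against 319.7 and 208, and at 1481 and 1498 against 510.01 (interaction -1.96 ± 0.45, edgeR adjusted p = 0.0231). Ndufa8, a complex I subunit, stood above WT in both kinds, at 41.5 against 70.0 and 47.1 and at 14.8 and 23.9 against 38.9 (0.73 ± 0.27, edgeR adjusted p = 0.993). Of 26 antioxidant and glutathione genes, 8 were called with a lower KO effect in the globin-rich kind (2.84% of all genes), among them Sod2, the superoxide dismutase of mitochondria, at 41.4 against 71.7 and 43.9, and at 283 and 257 against 107 (-1.80 ± 0.45, edgeR adjusted p = 0.0348). Gstt1, a glutathione transferase, stood at 12.5 against 11 and 9.40, and at 136 and 273 against 4.32, so that it was lower in KO in both kinds and the interaction passed (-5.26 ± 0.62, edgeR adjusted p = 0.00206). Gsr, glutathione reductase, stood above WT in both kinds, at 54.7 against 73.7 and 64.2 and at 204 and 184 against 380.02 (0.65 ± 0.23, edgeR adjusted p = 0.993).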

How the data were processed

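RNA was sequenced from 6 spleen-labelled libraries, 3 per genotype, with totals of 9.32 to 28.2 M counts. The authors deposited 1 table of unnormalised counts for each library, over 46603 Ensembl identifiers. Per the submitters' processing notes, reads were handled with Trimmomatic 0.36 and FastQC, with HISAT2 2.0.4 and SAMtools 0.1.19, and with HTSeq, and mm10 is given beside GRCm38 as the build. The annotation release, the strand setting and the enrichment of messenger RNA are not given in the sources used here, so overlapping and antisense genes cannot be told apart. Symbols came from a GENCODE annotation of GRCm38, which named 46091 identifiers. The list members Ahsp, Fdcsp and Klkb1 found no identifier.

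The 4 globin genes were removed, low genes were dropped by filterByExpr, and the rest were normalised by TMM and tested with edgeR 4.0.16 (robust quasi-likelihood F test, R 4.3.3) on genotype and the globin term, with 3 residual degrees of freedom. A library was globin-rich above a globin share of 25%. The interaction fit had 2 residual degrees of freedom, and its lone libraries, WT 01 and KO 03, were assumed to vary like the others. The threshold was 0.05 after Benjamini-Hochberg adjustment over all tested genes. Alternatives used limma 3.58.1 and DESeq2 1.42.0, and tables and plots used Python 3.11.15, pandas 2.3.3 and matplotlib 3.10.9. Log2 fold changes are KO over WT ± SE.

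The comparison, the 41 gene lists and their members were chosen with earlier results of these data known, so the lists carry no test and are described by counts and medians. The naming rule took Myo1c, then per direction the 14 genes with the smallest p, a mean of at least 5 scaled CPM and KO libraries outside WT on the same side in both kinds, without predicted models, pseudogenes and receptor segments. It then took the member of smallest p of each list and 4 members of each of the 8 lists with the largest absolute medians. With 8 interaction genes per direction, chosen after their values were seen, this gave 98 genes in all. Other list members named in the text were also chosen after their values were seen.

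Counts of every library pair differed by more than sampling noise (smallest chi-square per degree of freedom 8.10), so each was used as 1 replicate. The fits were tested on simulated data: over 16664 genes the interaction fit called 0%, 1.49% and 18.2% of genes altered 2-fold, 4-fold and 8-fold. No library was left out, and blood libraries entered 1 alternative only. Replicate numbers 01 and 04 occur in both genotypes, but nothing in the labels ties a number to 1 mouse, so the fit is unpaired.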

Additional observations from a re-analysis of the deposited data

Results flagged for a closer look

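The interaction of genotype with globin-rich against globin-poor libraries was called for 559 genes (edgeR), in a fit with WT 01 and KO 03 as lone libraries. The count was 1 without WT 02 and 0 without WT 04. Leaving out predicted models, pseudogenes and receptor segments, the 8 called genes of at least 5 scaled CPM with the smallest p and a lower KO effect in the globin-rich kind were Fn3k, a kinase of glycated proteins, at a log2 interaction of -12.59, Tyms at -6.39, Nqo1, a quinone reductase, at -6.0, Gstt1 at -5.26, the non-coding Lockd at -4.22, Esco2, which acetylates cohesin in S phase, at -3.92, the amino acid transporter gene Slc16a10 at -3.59 and the chaperone gene Dnaja4 at -3.58. Fn3k had 0 counts in KO 03, so its fitted value depends on the prior count and is no bound. The 8 with a higher KO effect were Arrdc4, an arrestin-related gene, at 3.34, Retnlg at 2.96, the lactate transporter gene Slc16a3 at 2.73, Adam8 at 2.22, Mmp9 at 2.2, the transcription factor gene Cebpb at 2.14, S100a6 at 2.07, and Il1b at 2.02. Also called were the membrane protein gene Ifitm1 at 1.56 and S100a8 at 1.45. The erythroid list had medians of -1.53 within the globin-rich and 2.29 within the globin-poor libraries, with every library of each kind on its side for 47 and 48 of 48 genes. The difference of these medians was not tested as such.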

How the results depend on the processing

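The count of genes called for genotype, 0 as planned and in most alternatives, was 1 with library sizes as the only scaling (Chil3), 3 without the filter on low counts (Chil3, AW822073 and Fau-ps2), 3 with DESeq2 (Chil3, Clu and Fau-ps2) and 1398 with the globin-rich libraries only. Leaving out 1 library gave 0 to 466, the latter without WT 01, which leaves no WT library in the globin-poor kind. The interaction count of 559 was 1700 with library sizes only, 0 with limma-voom, 0 in the fit of all 12 libraries and 0 to 1015 when 1 library was left out. The cause was not tested. Library sizes only moved the median of all tested genes from -0.03 to 0.25, and from -0.03 to 0.66 within the globin-rich kind, so values near 0 there follow the scaling.

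With the replicate block, 0 genes were called. The residual correlation of the shared numbers was -0.76 for 01 and 0.14 for 04, and the block is confounded with kind. In the fixed replicate block, which has no globin term, log2 fold changes reversed for Ckb 0.30, Fbln1 0.17, Myo1c -0.29, Asb2 1.70, Vcan -0.80, Cxcl13 2.03, Pdgfrb 1.29, Ifitm1 -0.25, Procr 0.60, Fscn1 1.61, Bhlhe40 0.20, Mfap5 0.25, Mgp 1.00, Bgn 2.39, Gas6 1.98, Gsr -0.53, Chil3 -0.22, Cldn5 1.83, Stab1 0.46, Cd177 -0.20, Socs3 -0.23, S100a8 -0.55, Stfa2l1 -0.97, Ccl19 2.01 and Hist1h3i -1.43. With the replicate block by duplicateCorrelation, Uty was 0.10.

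With genotype alone, Myo1c was -0.048, Asb2 0.17, Cela1 -0.074, Cxcl13 0.030, Pdgfrb 0.31, Fscn1 0.39, Bgn 0.36, Gas6 0.28, Cldn5 0.088 and Ccl19 0.23. With globin-poor libraries only, Myo1c was -0.18, Irf7 0.082 and Uty 0.10, and with globin-rich libraries only, Epor was -0.51 and Cela1 -0.095. Uty was 0.0039 with library sizes only, and Cela1 -0.092 with all 12 libraries. Leaving out 1 library gave -0.49 to 2.52 for Epor, -0.093 to 1.51 for Cela1, -1.12 to 0 for Cxcl13, 0 to 3.47 for Ms4a3, -0.82 to 0 for Ccl19, -0.19 to 0.32 for Myo1c, -1.31 to 0.073 for Irf7 and -0.70 to 0.087 for Uty. Depth limits the globin-rich libraries, at 4.09 to 5.47 M non-globin counts.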

Other observations

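Of 16 tested fat cell genes, 2 had a log2 fold change above 0 (median -0.61, and -0.63 and -0.67 in the globin-rich and globin-poor kinds), and 3 stood below WT in both kinds, beside 12.8% of all genes. Pnpla2, the triglyceride lipase, was among these, at 76.1 scaled CPM in WT 01 against 50.7 and 62.9 in KO 01 and KO 04, and at 363 and 299.7 in WT 02 and WT 04 against 209.9 in KO 03 (-0.54 ± 0.23, edgeR adjusted p = 0.993). The defining fat cell genes spread between single libraries. Adipoq, the fat cell hormone adiponectin, stood at 18.5 scaled CPM in WT 01 and 19.3 in KO 04 but at 0.264 in KO 01, and at 0 counts in the 3 globin-rich libraries. Cfd, the fat cell protease adipsin, stood at 149 in WT 01 and 137 in KO 04, at 0.216 in KO 01, and at 6.35, 1.33 and 0 in WT 02, WT 04 and KO 03.

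Of 36 interferon-stimulated genes 11 were above 0 (median -0.09). Rsad2, which encodes the antiviral enzyme viperin, spread more than the rest: 38.7 scaled CPM in WT 01 against 170.2 and 56.0 in KO 01 and KO 04, and 16061 and 13439 in WT 02 and WT 04 against 4444 in KO 03 (genotype log2 -0.09 ± 0.99, edgeR adjusted p = 0.998). Immediate-early genes, which cells switch on within minutes of a stimulus, stood higher in KO 03 than in WT 02 and WT 04 for 21 of 28 (33.3% of all genes) and lower in KO 01 and KO 04 than in WT 01 for 19 of 28 (36.8% of all genes). Fos stood at 9.47 against 4.93 and 6.66, and at 41.9 and 37.7 against 63.3.

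Ribosomal protein genes were near 0 in both kinds, with medians of -0.04 in the globin-rich and -0.01 in the globin-poor libraries over 75 genes, and 0 of them had an unadjusted p under 0.05 (edgeR, 0 called).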
